A study of Mus musculus with 2 samples.

Results

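Bmp4, Gpr17, Tcf7l2, Bcas1, Chn2 and Smpd3 are 6 genes that an oligodendrocyte precursor is known to turn on, or to raise, around the time it leaves the precursor state. Both gene files of the hippocampal data hold all 6, among 12744 genes held by both. The genes were chosen by measured values: their GlaKO over wt ratios, their cells with a UMI and the share of their top cell in precursors of these same libraries were known when the list was drawn up. They were followed in cells that a marker gate called oligodendrocyte precursors. A barcode passed that gate with at least 4 unique molecular identifiers (UMIs, each a tag for 1 captured RNA molecule) summed over Pdgfra, Cspg4, Lhfpl3, Tnr and C1ql1. The gate took 419 of 5443 barcodes in the wt library and 533 of 4572 in the GlaKO library. Oligodendrocytes were barcodes with at least 10 UMIs summed over Mog, Mag, Cldn11, Ermn and Aspa that did not pass the precursor gate, 868 in wt and 1389 in GlaKO.

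The libraries came from hippocampi of 57-week-old mice. GlaKO mice are knockout for Gla, the gene of the lysosomal enzyme alpha-galactosidase A, which is deficient in Fabry disease, and the wt mice were their littermate controls. Animals of both genotypes were perfused, and the tissue was dissociated with enzymes, cleared of debris and sorted with the dye 7-AAD before droplet capture and sequencing of 3' RNA ends. The labels used here give neither the number of animals in a library nor their sex or strain, and there was 1 library per genotype. Every difference below is therefore a difference between 2 libraries, with no replicate check, and each 95% interval covers counting error only.

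Oligodendrocyte precursors persist in the adult brain, where they divide slowly, contact neurons and can still become myelinating cells. A precursor that commits to differentiation loses Pdgfra, the receptor for platelet-derived growth factor, and passes through a short stage that is marked by Gpr17, Bmp4, Bcas1 and Enpp6 before the genes of compact myelin rise. Tcf7l2 acts in the nucleus in that window, and Chn2 and Smpd3 encode enzymes or regulators of the cytoskeleton and of membrane lipids.

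The wt library held 31929688 UMIs and the GlaKO library 29914106, with medians of 5054 and 6101 UMIs per barcode. Gated precursors were shallower, with medians of 2571 and 2884 UMIs and class totals of 1619168 and 2573849. Gla itself was counted 397 times in wt and 222 times in GlaKO, at 12.4 and 7.42 CPM, the UMIs of a gene over all UMIs, scaled to 1000000. Whether the counted 3' end lies in the deleted part of Gla was not tested, so these values check no label. The libraries shared 6 barcode sequences, of which 1 wt and 2 GlaKO barcodes were among the gated precursors. Without shared barcodes the log2 ratios of the 6 genes stayed within the spread of counting error.

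The gate markers describe both classes but cannot check their names, because the gates were set on these same genes. Pdgfra had a UMI in 95.2% of wt and 93.8% of GlaKO precursors and in 3.00% and 4.97% of oligodendrocytes. Mag, a protein of the innermost myelin layer, had a UMI in every gated oligodendrocyte and in 12.4% and 21.0% of precursors. The precursor markers had a median sum of 24 UMIs in wt precursors and 26 in GlaKO precursors. Median sums of the other lists were 2 and 3 for astrocytes, 1 and 2 for neurons, 0 and 1 for oligodendrocytes, 0 and 1 for microglia, and 0 in both libraries for 7 lists of choroid plexus, vascular, lymphoid, border macrophage and ependymal cells. The precursor list also led all other lists in 380 of the 419 wt and 457 of the 533 GlaKO barcodes. The oligodendrocyte gate was passed as well by 5 wt and 16 GlaKO precursors.

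Few cells lay at the edge of the gate. A sum of exactly 4 UMIs was held by 16 wt and 26 GlaKO barcodes, just inside, and a sum of exactly 3 by 42 and 61, just outside. Gpr17 showed the step most plainly. It had a UMI in 1.59% of wt and 6.79% of GlaKO barcodes with sums of 2 or 3, in 1 of 20 wt and 8 of 42 GlaKO barcodes with sums of 4 or 5, and in 83.5% and 85.2% of those with sums of 8 or more. Smpd3 showed no such step. It had a UMI in 19.05% of wt and 30.9% of GlaKO barcodes with sums of 2 or 3. With sums of 8 or more the shares were 9.02% and 20.7%. With sums of 4 or 5, 1 of 20 wt barcodes had 1 Smpd3 UMI, while 15 of 42 GlaKO barcodes held 39 of them. So the GlaKO count of Smpd3 in gated precursors rested in part on barcodes at the edge of the gate.

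Bmp4, Chn2 and Smpd3 were higher in GlaKO than in wt precursors by more than 1.5-fold, so 3 of the 6 genes passed that fold and none was lower by it. Of the 7880 genes with at least 100 UMIs summed over the precursors of both libraries, 3.16% were higher by 1.5-fold and 1.45% were lower. The genes were proposed with this contrast in view, so nothing is read from their count. Gpr17 and Bcas1 were higher by smaller ratios, and Tcf7l2 had nearly the same level in both libraries. The added UMIs were held very differently. Of the GlaKO UMIs, those of Bmp4 and Chn2 sat mostly in a handful of cells, and those of Smpd3 were spread one or a few at a time over more than 100 cells.

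**Figure D1:**
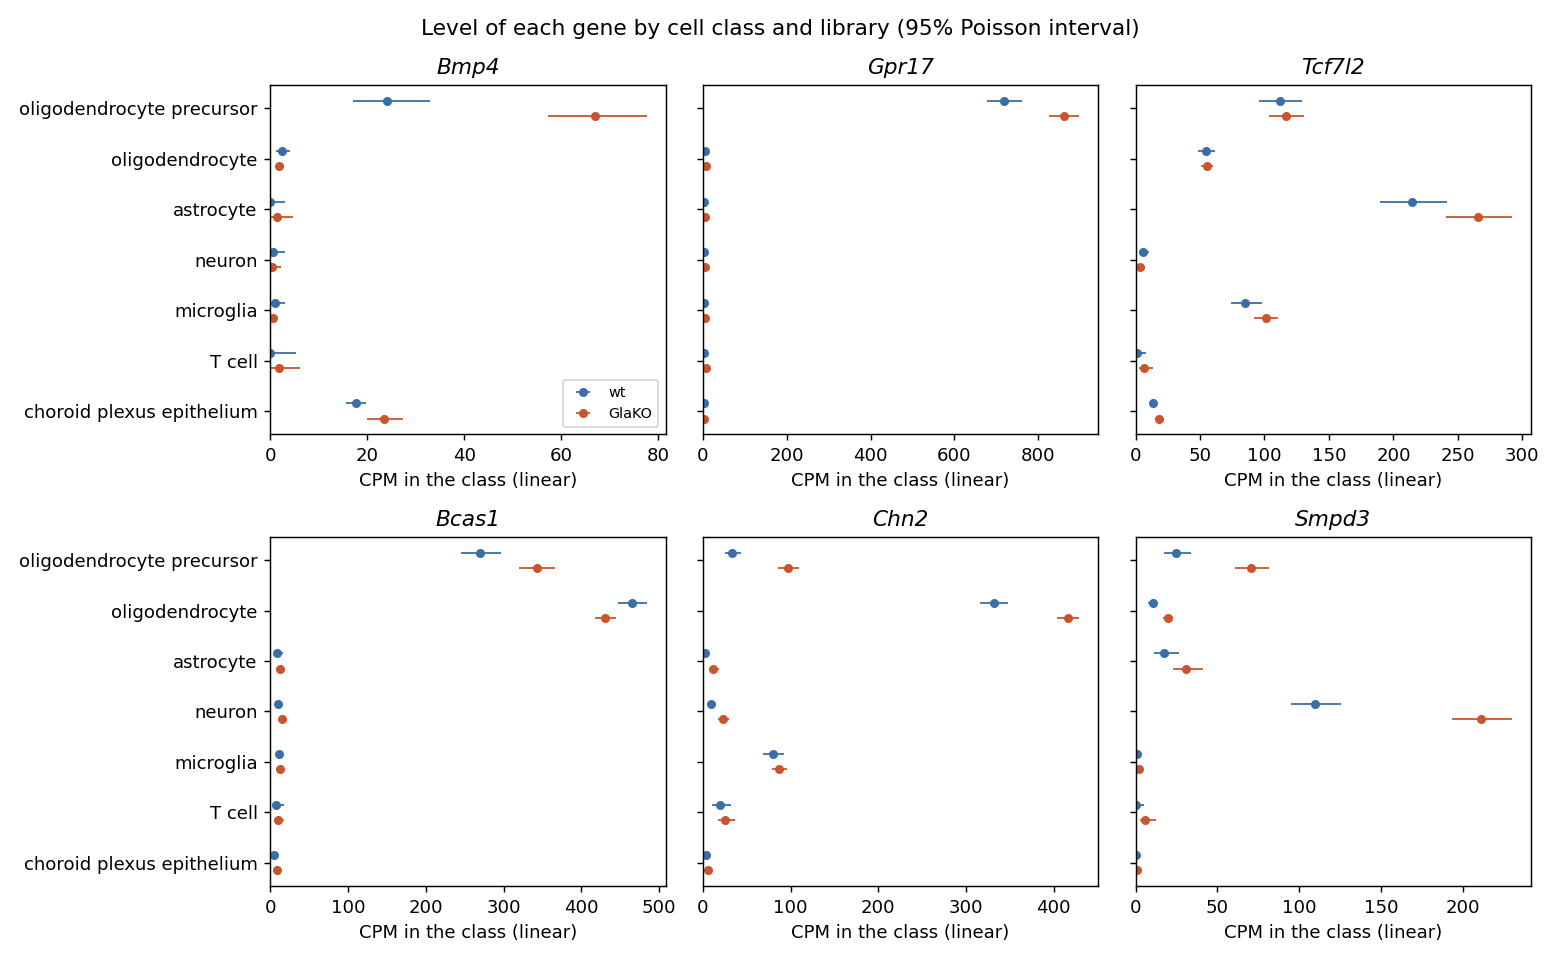
Level of each gene in 7 cell classes as CPM on a linear axis, blue for wt and orange for GlaKO, with bars for the 95% Poisson interval. Gpr17 stands at 719 and 862 CPM in precursors and under 7 CPM in every other class drawn, while Bcas1 and Chn2 are highest in oligodendrocytes, Tcf7l2 in astrocytes and Smpd3 in neurons.

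Bmp4 encodes bone morphogenetic protein 4, a secreted ligand of the TGF-beta superfamily that is made by differentiating oligodendrocytes as well as by vascular and mesenchymal cells. In wt precursors 39 Bmp4 UMIs were counted, or 24.1 CPM (17.1 to 32.9), in 32 of 419 cells. In GlaKO precursors there were 172, or 66.8 CPM (57.2 to 77.6), in 58 of 533 cells. The log2 ratio, GlaKO over wt, was 1.47 (0.96 to 2.01), or 2.77-fold. The share of cells with a UMI differed far less, at 7.64% (5.28 to 10.6) in wt and 10.9% (8.37 to 13.8) in GlaKO. After each cell was thinned to 2000 UMIs, which leaves out 116 wt and 115 GlaKO shallower cells, these shares were 4.95% (2.80 to 8.03) and 5.74% (3.71 to 8.42).

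The Bmp4 count of the GlaKO library rested on few cells. One cell held 61 UMIs, 35.5% of all in the class, and the top 4 cells held 103, or 59.9%. In wt the highest cell held 4 UMIs, 10.3% of its class, and 27 of the 32 cells had a single UMI. Leaving out the highest cell in both libraries gave a log2 ratio of 1.00. With each cell thinned to 2000 UMIs it was 0.27 (-0.62 to 1.20), from 18 and 30 UMIs.

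Bmp4 had few UMIs in most other classes. It had a UMI in 0.472% of wt and 0.288% of GlaKO microglia, whose median depths of 5384 and 6404 UMIs exceed those of precursors. In oligodendrocytes it had 12 UMIs in wt (2.37 CPM) and 17 in GlaKO (1.80 CPM). The choroid plexus epithelium, which secretes cerebrospinal fluid, held 293 Bmp4 UMIs in wt (17.6 CPM, 15.7 to 19.8) and 156 in GlaKO (23.4 CPM, 19.9 to 27.4), with at most 3 UMIs in any cell. That is a level like the one in wt precursors, spread over 253 wt and 127 GlaKO cells.

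The Bmp4 gene lies on chromosome 14 from 46383520 to 46390669 on the minus strand in GRCm38, the assembly that mm10 names. The last 2000 bases of the gene, where 3' tags fall, overlap Gm15217 on the opposite strand, and whether counting used strand is not given in the sources used here. Bmp4 and Chn2 are the genes whose added counts sat in the same few cells, so the promoter windows of both are shown. They are the 250 bases before an annotated start, from RefSeq on GRCm38.p6, written 5′ to 3′ on the gene's strand. Capitals mark the E-box letters CANNTG, the core bound by basic helix-loop-helix factors, a family that includes Olig1 and Olig2.
Bmp4, chr14:46390670-46390919, minus strand: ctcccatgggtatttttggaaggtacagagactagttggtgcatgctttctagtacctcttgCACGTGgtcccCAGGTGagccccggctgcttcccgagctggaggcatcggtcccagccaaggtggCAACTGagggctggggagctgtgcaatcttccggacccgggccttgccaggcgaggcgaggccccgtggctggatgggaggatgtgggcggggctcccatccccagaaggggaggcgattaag
Chn2, chr6:54264608-54264857, plus strand: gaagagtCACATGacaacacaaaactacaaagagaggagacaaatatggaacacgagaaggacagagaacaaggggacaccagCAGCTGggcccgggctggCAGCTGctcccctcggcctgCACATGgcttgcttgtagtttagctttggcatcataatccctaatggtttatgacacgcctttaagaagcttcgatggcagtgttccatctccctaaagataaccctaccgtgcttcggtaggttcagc
The Bmp4 window holds 3 E-boxes and the Chn2 window 4. CANNTG reads the same on both strands, and 66.2% of the 32851 RefSeq windows of this length hold at least 1, so a match is common. Chn2 has 4 windows in the table, and the one printed holds the most E-boxes, the others holding 0, 2 and 2. The letters CTTTGA, a core of the motif of Tcf factors searched on both strands, are in 13.8% of all windows and in none of the 7 windows of Bmp4, Chn2 and Tcf7l2. These are matches of letters only. RefSeq windows were matched for 3 of the 6 genes, not for Gpr17, Bcas1 or Smpd3.

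Gpr17 encodes a G protein-coupled receptor that marks precursors entering differentiation and is silenced again before myelination. It was the member most restricted to precursors. It had 1164 UMIs in wt precursors, or 719 CPM (678 to 761), and 2219 in GlaKO precursors, or 862 CPM (827 to 899). The log2 ratio was 0.26 (0.16 to 0.37), a 1.20-fold difference. Cells with a UMI made up 78.3% (328 of 419) in wt and 79.0% (421 of 533) in GlaKO, and 64.4% and 67.0% at 2000 UMIs. In oligodendrocytes it had 28 UMIs in wt (5.53 CPM) and 63 in GlaKO (6.66 CPM), and outside the precursor gate no barcode held more than 4 Gpr17 UMIs in wt or 3 in GlaKO. In choroid plexus epithelium, with medians of 6025 and 8643 UMIs per cell, 1.08% and 2.96% of cells had a Gpr17 UMI, each with exactly 1.

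Some precursors held far more Gpr17 than the rest. The highest cell had 46 UMIs in wt and 110 in GlaKO, 3.95% and 4.96% of the class. The top 4 GlaKO cells together held 14.1% of its Gpr17 UMIs, against 8.85% in wt.

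Tcf7l2 encodes a transcription factor of the Wnt pathway that is needed for precursors to mature. Its level in precursors was 112 CPM (96.1 to 129) from 181 UMIs in wt and 117 CPM (104 to 131) from 300 UMIs in GlaKO. The log2 ratio of 0.06 (-0.21 to 0.33) is an interval on both sides of 0. A UMI was found in 30.3% of wt and 34.1% of GlaKO precursors, and in 17.2% and 17.9% at 2000 UMIs. One GlaKO cell held 23 of the UMIs (7.67%), and the next highest held 7. Tcf7l2 was not particular to this lineage. Astrocytes had the highest level of any class drawn, 215 CPM (190 to 242) in wt and 265 CPM (240 to 292) in GlaKO. Microglia followed precursors at 85.2 and 101 CPM, and oligodendrocytes stood at 54.7 and 55.2 CPM. Neurons had 6.02 and 3.66 CPM.

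Bcas1 encodes a protein of differentiating and myelinating oligodendrocytes that marks early myelinating cells. In precursors it had 437 UMIs in wt, or 270 CPM (245 to 296), and 881 in GlaKO, or 342 CPM (320 to 366). The log2 ratio was 0.34 (0.18 to 0.51). A UMI was present in 48.7% of wt cells and 55.7% of GlaKO cells, but in 38.9% and 38.5% once cells were thinned to 2000 UMIs. The top GlaKO cell held 98 UMIs, 11.1% of the class, and the top 4 held 28.0%, against 11.2% for the top 4 in wt. In oligodendrocytes Bcas1 was higher than in precursors in both libraries, at 465 CPM (446 to 484) in wt and 430 CPM (417 to 444) in GlaKO, with a UMI in 81.6% and 80.3% of cells. There the GlaKO library was slightly below wt, with a log2 ratio of -0.11 (-0.18 to -0.04). Choroid plexus epithelium, which should lack Bcas1, had a UMI in 3.32% and 7.76% of its deeper cells.

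Chn2 encodes beta-chimaerin, a GTPase-activating protein that switches off the small GTPase Rac in response to diacylglycerol. It is in these data a gene of mature oligodendrocytes that few precursors had. Of wt precursors, 41 (9.79%) had a UMI, 54 UMIs in all, or 33.4 CPM (25.1 to 43.5). Of GlaKO precursors, 76 (14.3%) had one, 249 UMIs in all, or 96.7 CPM (85.1 to 110). The log2 ratio was 1.54 (1.11 to 1.99), or 2.90-fold. At 2000 UMIs per cell the shares of cells were 5.94% (3.56 to 9.23) and 7.66% (5.30 to 10.6).

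Chn2 was concentrated too, though less than Bmp4. One GlaKO cell held 67 UMIs (26.9%), and the top 4 held 134 (53.8%), while the highest wt cell held 4 (7.41%). Of the 8 GlaKO barcodes with the most Chn2, 4 led with oligodendrocyte markers, with 12, 9, 6 and 4 Chn2 UMIs and 68 to 92 UMIs of the oligodendrocyte gate genes each. The wt barcode with the most Chn2 also led with oligodendrocyte markers. In gated oligodendrocytes 74.7% of wt cells and 83.0% of GlaKO cells had a Chn2 UMI, at 332 CPM (316 to 348) and 416 CPM (403 to 429). The log2 ratio there was 0.33 (0.24 to 0.41), from 1681 and 3938 UMIs. Microglia also had Chn2, at 79.6 and 87.2 CPM, whereas choroid plexus epithelium had 3.07 and 6.15 CPM.

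The summed level of the oligodendrocyte markers in precursors moved the same way as Chn2 and Bcas1. It was 295 CPM in wt and 493 CPM in GlaKO, or 2.98% and 4.97% of the level in oligodendrocytes. All 5 markers were higher in GlaKO. The shift was not particular to this list. In the same precursors the microglia list was at 380 and 1390 CPM and the astrocyte list at 1116 and 1352 CPM. The pericyte list went the other way, at 766 and 218 CPM, as did the choroid plexus list, at 156 and 112 CPM. Chn2 in precursors stood at 10.1% of its level in oligodendrocytes in wt and at 23.2% in GlaKO, and Bcas1 at 58.0% and 79.5%. Without the barcodes that passed both gates the log2 ratio of Chn2 was 0.55 (0.03 to 1.10), that of Bmp4 0.69 (0.13 to 1.27) and that of Bcas1 0.09 (-0.08 to 0.27). The part of oligodendrocyte RNA in these ratios was not tested further.

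The cells that carried most of the added Bmp4 and Chn2 were the same few cells, and they held Enpp6. Enpp6 encodes a choline-specific glycerophosphodiesterase and is a marker of newly forming oligodendrocytes. A set of gated precursors with at least 2 Enpp6 UMIs and with the precursor list in the lead was therefore taken, after these values were seen. At least 2 Enpp6 UMIs were held by 4 wt and 10 GlaKO gated precursors, and of these the precursor list led in 2 and 8. The set, called Enpp6 cells, thus held 2 of 419 wt cells (0.477%, 0.0579 to 1.71) and 8 of 533 GlaKO cells (1.501%, 0.650 to 2.94), and the intervals overlap. All 10 had 0 Pdgfra UMIs and 0 Smpd3 UMIs, and all had Gpr17 and Bcas1. They still held the other precursor markers, on which they passed the gate. The gate sum was 91 UMIs in the deepest GlaKO cell, 16 in the GlaKO cell with 3020 UMIs and 55 in the deeper wt cell. Class medians of this sum were 26 in GlaKO and 24 in wt. They ranged from 1790 to 23924 UMIs in GlaKO and were 3472 and 10405 UMIs deep in wt.

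The deepest GlaKO cell, with 23924 UMIs against a class median of 2884, held 61 Bmp4, 110 Gpr17, 23 Tcf7l2, 98 Bcas1, 67 Chn2 and 32 Enpp6 UMIs. It also passed the oligodendrocyte gate, with 31 UMIs of those genes. A cell with 17367 UMIs held 16 Bmp4, 63 Gpr17, 64 Bcas1, 39 Chn2 and 12 Enpp6 UMIs. One with 19057 UMIs held 18 Bmp4, 84 Gpr17 and 58 Bcas1 but only 2 Chn2. The cell with 13727 UMIs held 7 Bmp4, 37 Gpr17, 27 Bcas1 and 16 Chn2. The other 4 GlaKO cells, none above 3371 UMIs, had 0 to 2 Bmp4 and 0 to 3 Chn2 UMIs each but 18 to 38 of Gpr17. The deeper wt cell, at 10405 UMIs, held 4 Bmp4, 46 Gpr17, 21 Bcas1, 3 Chn2 and 45 Fyn UMIs. Neither Bmp4 nor Chn2 was in the shallower wt cell. Whether any of these barcodes holds 2 cells was not tested.

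**Figure D2:**
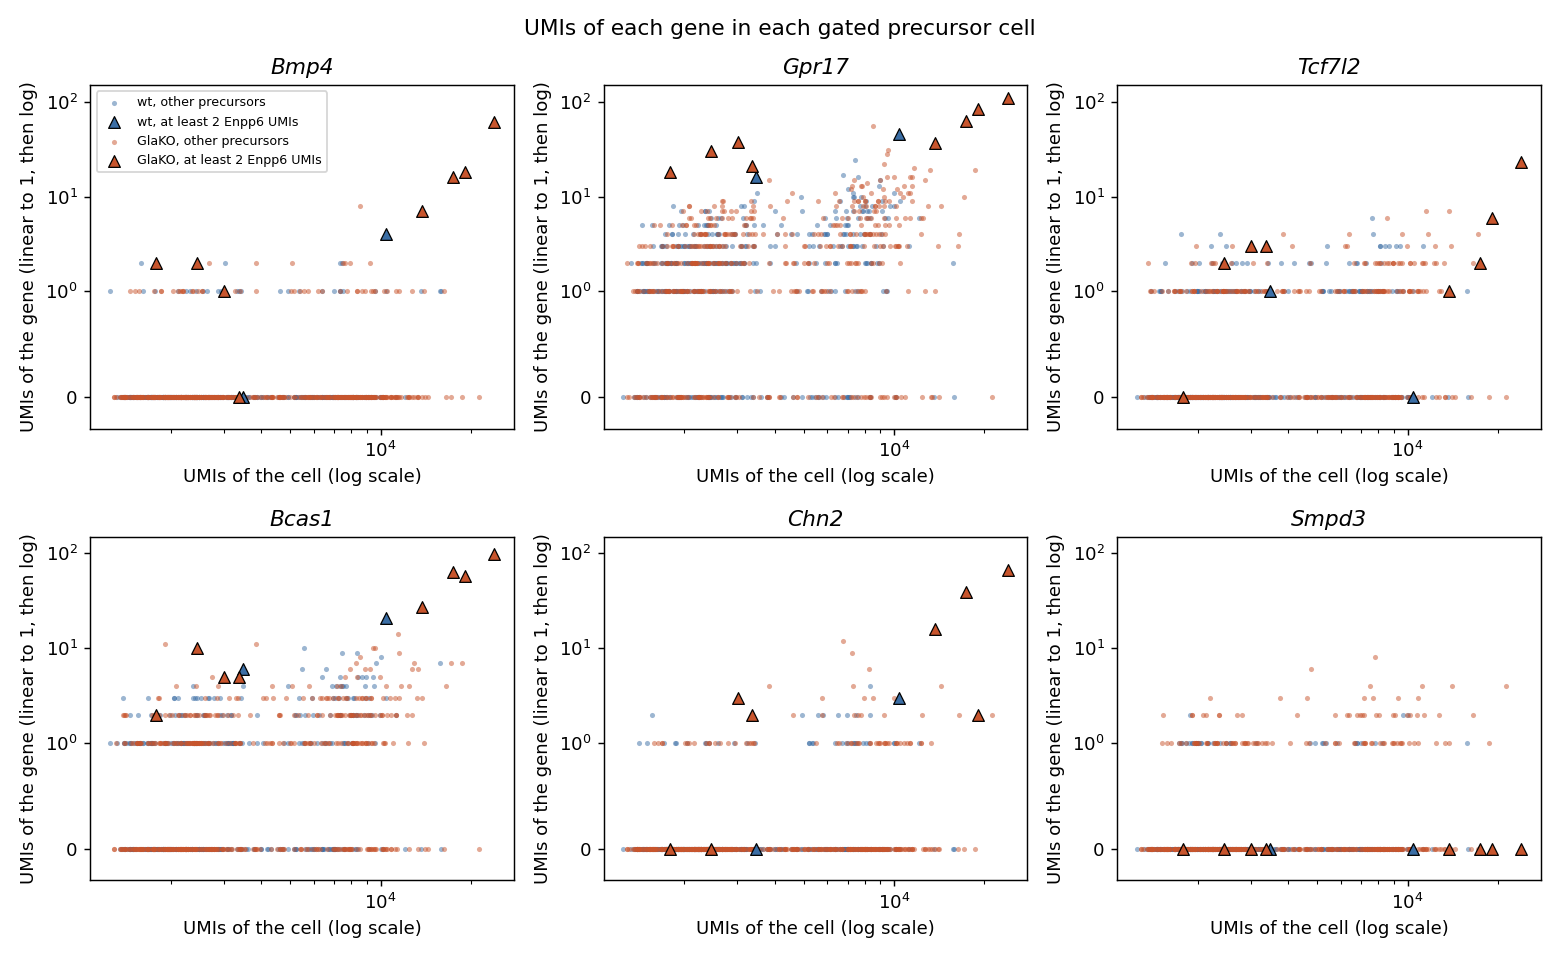
UMIs of each gene (linear to 1, then log) against the cell's total UMIs (log axis) for every gated precursor, blue for wt and orange for GlaKO, with triangles for the 10 cells that hold at least 2 Enpp6 UMIs and lead with the precursor list. The deepest triangles reach 61 UMIs for Bmp4, 98 for Bcas1 and 67 for Chn2, the shallower ones are low or at 0 for Bmp4 and Chn2, and all 10 are at 0 for Smpd3.

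Those 8 GlaKO cells held 3.29% of the UMIs of the class but 62.2% of its Bmp4, 51.8% of its Chn2, 30.5% of its Bcas1, 18.1% of its Gpr17 and 13.3% of its Tcf7l2. As a level, Bmp4 was 1263 CPM in them and 26.1 CPM in the other 525 GlaKO precursors. The other 417 wt precursors had 21.8 CPM. Chn2 was 1523 CPM in the set and 48.2 CPM outside it in GlaKO, against 31.8 CPM outside it in wt. Gpr17 was 4734 CPM in the GlaKO set and 4468 CPM in the wt set, and 730 and 686 CPM outside. Bcas1 was 3176 and 1946 CPM inside and 246 and 255 CPM outside. Fyn, a kinase that drives early myelination, was 3353 and 3315 CPM inside and 221 and 211 CPM outside. Fyn did not enter the rule for the set but was named after its values were seen, so it is no independent check. The wt value inside rests on 1 cell with 45 Fyn UMIs, as the other wt cell held 1.

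Outside the Enpp6 cells the counting intervals of 4 of the 6 ratios spanned 0. The log2 ratio became 0.26 (-0.35 to 0.90) for Bmp4, 0.09 (-0.02 to 0.20) for Gpr17, -0.10 (-0.38 to 0.18) for Tcf7l2 and -0.05 (-0.24 to 0.13) for Bcas1. Chn2 kept 0.60 (0.12 to 1.10), and 0.29 (-0.28 to 0.87) when the barcodes passing both gates were left out as well. Smpd3 was at 1.55. As a description, the larger Bmp4 and Bcas1 values in GlaKO precursors rested largely on 8 cells of 1 library. The Chn2 value rested largely on those cells and on barcodes that also passed the oligodendrocyte gate. The set was taken after its counts were seen, so lower Bmp4 and Chn2 ratios without it were built in. Its removal also took 2 wt cells.

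**Figure D3:**
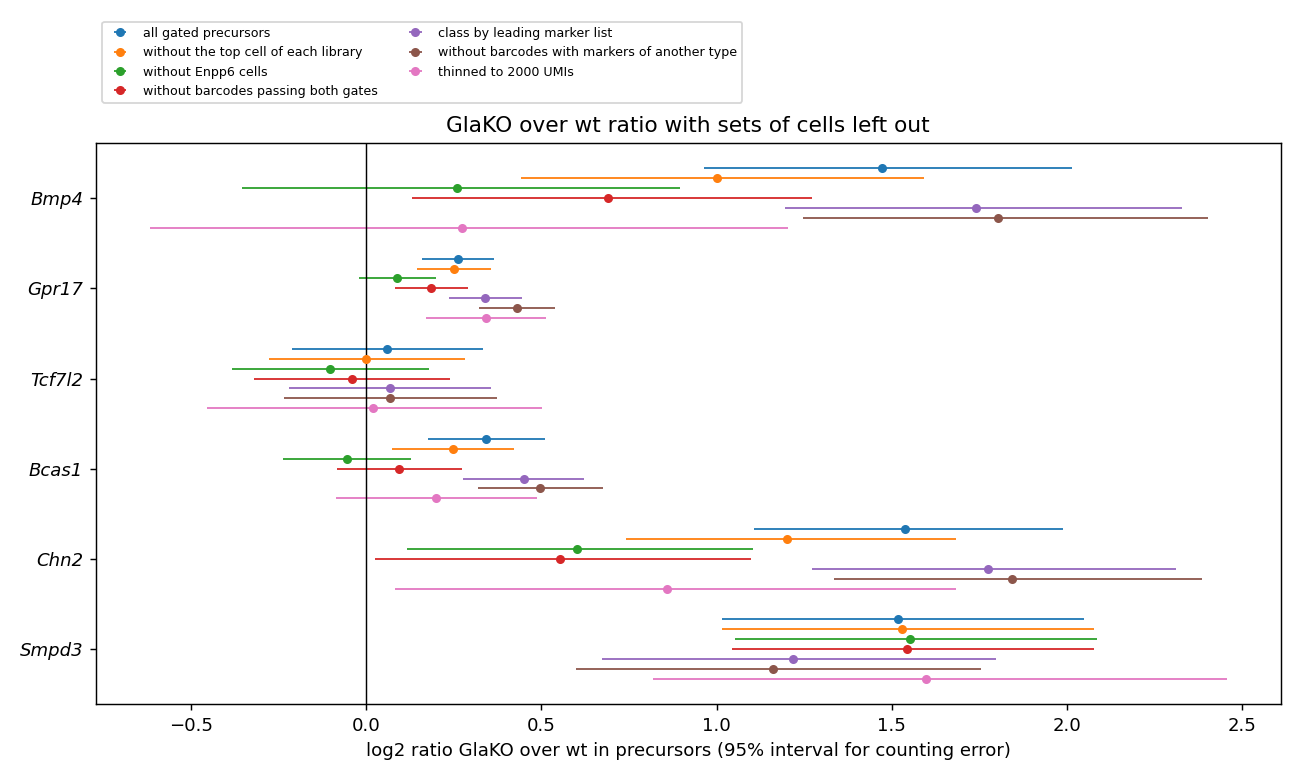
The log2 ratio, GlaKO over wt, of each gene in precursors with bars for its 95% counting interval, for all gated precursors and with sets of cells left out or thinned (colours). Bmp4 runs from 0.26 without the Enpp6 cells to 1.80 without barcodes holding markers of another type, while Smpd3 stays at or above 1.16 in every setting drawn.

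Smpd3 encodes neutral sphingomyelinase 2, which splits sphingomyelin into ceramide and phosphocholine at membranes and takes part in vesicle release. In wt precursors it had 40 UMIs, 24.7 CPM (17.6 to 33.6), in 37 of 419 cells (8.83%, 6.29 to 11.97). In GlaKO it had 182 UMIs, 70.7 CPM (60.8 to 81.8), in 117 of 533 cells (22.0%, 18.5 to 25.7). The log2 ratio was 1.52 (1.02 to 2.05), or 2.86-fold. Here the shares of cells were apart too, also at equal depth. At 2000 UMIs per cell, 5.61% (3.30 to 8.83) of wt and 14.1% (10.9 to 17.8) of GlaKO precursors had a UMI, and the intervals do not overlap. No cell held more than 2 Smpd3 UMIs in wt or 8 in GlaKO, where the top cell had 4.40% of the class. Leaving out the highest cell in both libraries gave 1.53. With a gate of at least 8 UMIs, 37 wt and 130 GlaKO UMIs gave 1.17 (0.63 to 1.74). Smpd3 was not raised in the Enpp6 cells. The 8 GlaKO cells held 0 UMIs (0 to 43.5 CPM), against 73.1 CPM (62.9 to 84.5) in the other GlaKO precursors. The 2 wt cells held 0 as well (0 to 266 CPM), against 24.9 CPM in the others.

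Smpd3 was also higher in GlaKO in other classes that had it. Neurons had its highest level, 109 CPM (94.7 to 126) from 200 UMIs in wt and 211 CPM (193 to 230) from 519 UMIs in GlaKO. The log2 ratio in neurons was 0.95 (0.71 to 1.19), rank 33 of 7461 genes, of which 2.1% were higher by 1.5-fold and 1.27% lower. At 2000 UMIs, 20.2% of wt and 34.1% of GlaKO neurons had a UMI. In oligodendrocytes it had 53 UMIs in wt (10.5 CPM) and 185 in GlaKO (19.5 CPM), a log2 ratio of 0.90 (0.45 to 1.37). Astrocytes had 22 and 49 UMIs, with a log2 ratio of 0.82 (0.07 to 1.62). Microglia had a Smpd3 UMI in 0.236% and 1.15% of cells and choroid plexus epithelium in 0.216% and 0.846%, and both were deeper than precursors. The share of precursors with a Smpd3 UMI was larger than that in both libraries. Neuron markers were at 59.1 and 70.2 CPM in microglia but at 702 and 1177 CPM in precursors. Microglia are therefore no measure of the neuron marker level in precursors. The source of those marker counts and the Smpd3 background of precursors were not tested.

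**Figure D4:**
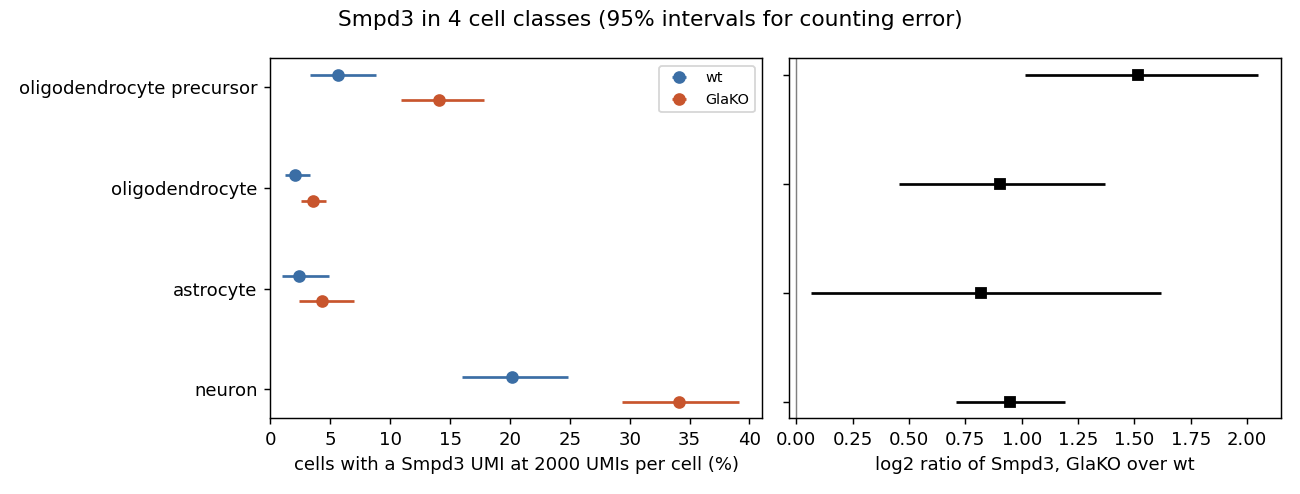
Left, share of cells with a Smpd3 UMI after thinning to 2000 UMIs per cell, blue for wt and orange for GlaKO; right, the log2 ratio of Smpd3, GlaKO over wt, in the same 4 classes, with bars for 95% counting intervals. All 4 ratios lie above 0, from 0.82 in astrocytes to 1.52 in precursors.

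The neuron markers moved with Smpd3 in precursors, like the oligodendrocyte, microglia and astrocyte markers. The neuron markers summed to 702 CPM in wt precursors and 1177 CPM in GlaKO precursors, 7.86% and 11.2% of their level in neurons. All 6 were higher in GlaKO. Snhg11 had a UMI in 55.8% and 59.3% of precursors, so this list is not at 0 in the class, whereas Rbfox3 and Stmn2 had one in under 4% of cells in either library. Smpd3 in precursors was at 22.6% and 33.5% of its level in neurons. The share of the marker list sums unlike genes, so the 2 shares do not separate sources of RNA. Snhg11 alone gave 573 of the 1136 neuron marker UMIs in wt precursors and 1078 of 3029 in GlaKO. Among precursors with no neuron marker UMI, 117 in wt and 116 in GlaKO, 9 and 22 Smpd3 UMIs gave a log2 ratio of 1.19 (0.01 to 2.49). Without barcodes that held markers of any other type it was 1.16. How far neuronal RNA enters the Smpd3 ratio was not tested beyond these values.

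The Smpd3 gene lies on chromosome 8 from 106252548 to 106337988, minus strand, in GRCm38. Its last 2000 bases overlap Prmt7 on the opposite strand and Gm26786 on the same strand, from which even a stranded count would not fully separate it. Prmt7 was not higher in GlaKO precursors, with 59 and 81 UMIs and a log2 ratio of -0.21 (-0.71 to 0.30). Gm26786 is not held by both gene files, so it was not compared. Whether RNA of overlapping genes enters the Smpd3 count was not tested. Chn2 lies on chromosome 6 from 54039554 to 54301810 on the plus strand, and its last 2000 bases overlap 9130019P16Rik on the opposite strand. Tcf7l2 lies on chromosome 19 from 55741820 to 55933654 on the plus strand, and Bcas1 on chromosome 2 from 170346991 to 170427845 on the minus strand.

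In oligodendrocytes 4 of the 6 genes reached 100 summed UMIs. Smpd3 alone of these was higher by 1.5-fold, where 2.66% of 8884 genes were higher and 0.946% lower. Bmp4 and Gpr17 were below that count, with log2 ratios of -0.40 (-1.55 to 0.80) and 0.27 (-0.40 to 0.97). Tcf7l2 had a log2 ratio of 0.01 (-0.20 to 0.23), so Bcas1 and Tcf7l2 were at most slightly apart between the libraries in mature cells.

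At full depth 59.2% of wt and 67.5% of GlaKO precursors had at least 2 of the genes, and at 2000 UMIs per cell 41.9% and 47.4% had. At least 3 of the 6 were detected in 25.3% (21.2 to 29.7) of wt and 37.3% (33.2 to 41.6) of GlaKO precursors. At the lower depth the shares were 10.9% (7.62 to 15.0) and 16.3% (12.9 to 20.2), with overlapping intervals. Exactly 5 genes were detected in 4 wt and 17 GlaKO cells, and all 6 in none of the 419 wt or 533 GlaKO cells.

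For each of the 15 pairs the cells holding both genes were set beside the number that the product of the single shares gives. Deeper cells hold more of every gene, so this product is a reference and not a test. Tcf7l2 and Bcas1 were found together in 75 wt cells against 61.8 from the product and in 121 GlaKO cells against 101. Bcas1 and Chn2 shared 27 cells against 20.0 in wt and 55 against 42.3 in GlaKO. Both pairs were thus above the product in both libraries, although at 2000 UMIs Bcas1 and Chn2 shared 5 wt cells against 7.01.

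Bmp4 paired differently with its partners. With Chn2 it shared 7 wt cells against 3.13 and 11 GlaKO cells against 8.27, and at 2000 UMIs 0 wt cells against 0.891 and 5 GlaKO cells against 1.84. With Tcf7l2 it shared 9 wt cells against 9.70 and 29 GlaKO cells against 19.8. With Gpr17 it shared 18 against 25.1 in wt and 50 against 45.8 in GlaKO. With Smpd3 it shared 3 cells against 2.83 in wt and 7 against 12.7 in GlaKO, and at 2000 UMIs no GlaKO cell held both, against 3.39 from the product. Smpd3 paired near the product with Gpr17, 31 against 29.0 and 93 against 92.4, and with Bcas1, 16 against 18.01 and 63 against 65.2. With Chn2 it was above the product in both libraries, with 6 cells against 3.62 in wt and 24 against 16.7 in GlaKO. At 2000 UMIs this pair shared 1 wt cell against 1.01 and 7 GlaKO cells against 4.52.

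The genes whose detection ran most closely with each member across thinned precursors (303 wt and 418 GlaKO cells) were ranked by the lower of the phi coefficients in the 2 libraries. Phi is a correlation of presence and absence, and cells of 1 library share its free RNA. Gpr17 ran with Ptprz1 (0.34 in wt and 0.35 in GlaKO), Gpr37l1 (0.33 and 0.36), Lhfpl3 (0.31 and 0.32), Olig1 (0.31 and 0.30) and Bcan (0.28 and 0.29), all known precursor genes, of which Lhfpl3 is in the gate. Bcas1 ran with Olig1 (0.20 and 0.20), Vcan, Cd9, Bcan and Lhfpl3. Chn2 ran with Agpat4 (0.22 and 0.20), Cldn11 (0.19 and 0.24), Ttyh2 (0.17 and 0.31), Tom1 and Slc44a1, of which Cldn11 is a tight junction gene of myelin and in the oligodendrocyte gate. Smpd3 ran with Camk2a (0.15 and 0.17), Chl1, Sypl, Sltm and Sv2a (0.17 and 0.13), and Camk2a and Sv2a are known as neuronal and synaptic genes. For Bmp4 the first was Sh3rf1 (0.15 and 0.16), followed by Cdpf1, Dpm3, Oxr1 and Rab33a. For Tcf7l2 it was Zfp26 (0.17 and 0.14), followed by Epb41l2, Clk1 and Dph5. Values this weak in sparse counts are given as a description only.

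Other genes of committed precursors and new oligodendrocytes stood near the members only in part. Of a list of 16, 11 reached 100 UMIs in precursors, 2 were higher in GlaKO by 1.5-fold and none was lower. Over all 7880 genes measured, 3.16% were higher and 1.45% lower. The median log2 ratio of the list was 0.12, beside 0.00 over all genes measured. Enpp6 had 14 UMIs in wt and 95 in GlaKO (log2 ratio 2.09, 1.28 to 3.02), and Frmd4a had 44 and 138 (0.98, 0.48 to 1.504). Samd4b at -0.07 and Neu4, a sialidase, at -0.06 were lowest. Without the Enpp6 cells and the barcodes passing both gates, 10 were measured, none was past 1.5-fold in either direction, and the median was -0.03.

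The pathway of Bmp4 showed no common shift. Of 30 genes of bone morphogenetic protein signalling 16 were measured, 7 above 0, with a median of -0.01. The ligand Bmp7 was at 0.44 (0.02 to 0.87) and the inhibitor Smad7 at 0.41 (0.06 to 0.77). Id3, a target of the pathway, had 214 UMIs in wt and 191 in the larger GlaKO class and was lower by more than 1.5-fold, at -0.83 (-1.12 to -0.54), and the protease Bmp1 was at -0.43 (-0.88 to 0.02).

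Around Tcf7l2, 19 of 34 Wnt pathway genes were measured, none past 1.5-fold, with a median of 0.07. Values ran from -0.47 for Bcl9, a co-activator, and -0.29 for the ubiquitin ligase Rnf43 to 0.43 for the co-repressor Tle4 and 0.44 for the co-receptor Lrp5. Of 23 Rac regulators, the group of Chn2, 17 were measured, none past 1.5-fold, with a median of 0.18. Chn1, which encodes the paralogous alpha-chimaerin, was at 0.45 (0.22 to 0.69), Arhgap24 at 0.36, Rac3 at -0.19 and Arhgap31 at -0.18.

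Of 27 genes of sphingomyelin and galactolipid metabolism, the group of Smpd3, 19 were measured in precursors, none past 1.5-fold, with a median of -0.02. Samd8, a ceramide phosphoethanolamine synthase, was at 0.42 (0.00 to 0.85), and Fa2h, which hydroxylates fatty acids of myelin lipids, was at 0.37 (0.03 to 0.73). The alkaline ceramidase Acer3 was at -0.33 (-0.89 to 0.24). Smpd1, the lysosomal sphingomyelinase, was at -0.25 (-0.56 to 0.07), opposite in sign to Smpd3.

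Genes of precursor identity were mostly slightly lower in GlaKO. Of 25 precursor genes outside the gate all were measured, and 1 was higher by 1.5-fold and none lower. Over all 7880 genes measured, 3.16% were higher and 1.45% lower. Of the list 7 were above 0, against 3961 of the 7880 genes, and its median was -0.06. Ntm, a cell adhesion molecule, was at 0.92 (0.79 to 1.05) and the adaptor Shc4 at 0.14, with Sapcd2 at -0.34 and the proteoglycan Cspg5 at -0.22. Of 27 lineage transcription factors 26 were measured, and the median was 0.07. Beside the same 3.16% over all genes, 2 of them were higher by 1.5-fold. These were Sox9 at 1.18 (0.50 to 1.92), from 23 and 83 UMIs, and Hes1, a Notch target, at 0.65 (0.42 to 0.87). Hes6 at -0.47 and Klf9 at -0.36 were lowest. Only 2 of 20 cell cycle genes reached 100 UMIs, Hmgb2 at -0.70 (-0.93 to -0.47) and Pcna at -0.21.

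Myelin genes were the list with the highest median. In precursors 20 of 22 were measured, 8 were higher by 1.5-fold, none was lower, 19 were above 0, and the median was 0.42. Over all 7880 genes measured there, 3.16% were higher by 1.5-fold and 1.45% lower. Cldn11 was at 1.03 (0.64 to 1.43) and Mog at 0.93 (0.54 to 1.34), and Ugt8a at -0.03 and Enpp2 at 0.06 were lowest. Without the Enpp6 cells and the barcodes passing both gates, 15 were measured, 6 were higher by 1.5-fold, and the median was 0.35. The share over all genes in that reduced set of cells is not given here, so nothing is read from this count. In oligodendrocytes all 22 were measured, none was past 1.5-fold, and the median was -0.01. The oligodendrocyte markers also differed between libraries in microglia, at 103 CPM in wt and 163 CPM in GlaKO, and in choroid plexus epithelium, at 54.6 and 91.7 CPM. The part of free oligodendrocyte RNA in the myelin values of precursors was not tested.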

How the data were processed

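Single-cell UMI counts of 2 hippocampal libraries, 1 wt and 1 GlaKO, were used as the authors deposited them: raw counts per gene and barcode, as whole numbers. The build mm10 and the tools Seurat 4, R 4.1.3 and Cell Ranger 6.0.1 are named in the submitters' processing notes. The sources used here do not give the annotation, the use of strand or any filter on barcodes and genes. No further filter on barcodes was applied.

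The 6 genes, the gene lists and the marker lists were chosen with earlier results of these data known. Classes were set by the marker gates in the report, precursors first; other classes took the marker list that led a barcode (at least 4 UMIs and 10% of the level in its 100 richest barcodes). No doublet caller was run; barcodes with markers of another type were left out as an alternative. CPM is summed UMIs over the class total. Intervals are 95% Poisson for levels, Clopper-Pearson for shares and exact conditional for ratios, counting error only. With 1 library per genotype there was no test. Ratios counted past 1.5-fold needed 100 summed UMIs. Thinning drew 2000 UMIs per cell (seed 7). Calculations were tested on simulated counts. Named genes are the 6 genes, the highest 2 and lowest 2 of each list in precursors, the gate markers and the 5 genes closest in detection to each gene, among genes in at least 20 thinned precursors of each library; 1 of these is not reported here. Fyn, Gla, Prmt7, Snhg11, Rbfox3 and Stmn2 fall outside that rule and were chosen after their values were seen. Positions come from GENCODE M21. Python 3.11.15, numpy 2.4.6, scipy 1.17.1, pandas 2.3.3 and matplotlib 3.10.9 were used.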

Additional observations from a re-analysis of the deposited data

Results flagged for a closer look

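Bcas1 differed from wt in opposite directions in the 2 classes of the lineage. Its log2 ratio, GlaKO over wt, was 0.34 in precursors and -0.11 in oligodendrocytes, and the counting intervals lie on opposite sides of 0. The difference between the classes was not tested, since there is 1 library per genotype. Without the 10 cells that held at least 2 Enpp6 UMIs and led with the precursor list, the precursor value was -0.05.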

How the results depend on the processing

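Over 84 recomputed log2 ratios in precursors, 64 moved by less than the counting interval of the value reported, and 20 moved by more. The latter 20 follow. Without barcodes passing both gates the values were 0.69 for Bmp4, 0.094 for Bcas1 and 0.55 for Chn2. Without the Enpp6 cells, an alternative chosen after seeing the data, they were 0.26 for Bmp4, 0.089 for Gpr17, -0.055 for Bcas1 and 0.60 for Chn2. Without both sets they were 0.31 for Bmp4, 0.11 for Gpr17, -0.040 for Bcas1 and 0.29 for Chn2. Thinning to 2000 UMIs gave 0.27 for Bmp4 and 0.86 for Chn2. An equal split over UMI depth gave 0.95 and 1.04, and a mean of CPM over cells, also added later, gave 0.77 and 0.84, for Bmp4 and Chn2. Without barcodes holding markers of another type Gpr17 was at 0.43. With a gate of at least 2 UMIs Bcas1 was at 0.58, and without precursors holding a neuron marker UMI, also added later, it was at 0.62. Smpd3 ran from 1.16 to 1.60 and Tcf7l2 from -0.10 to 0.11 over 14 alternatives each. In oligodendrocytes 53 of 54 values stayed within the interval, and Gpr17 thinned to 2000 UMIs gave 1.00, from 8 and 26 UMIs. The share of precursors with at least 3 of the genes was 17.9% in wt and 28.3% in GlaKO with a gate of at least 2 UMIs, and 10.9% and 16.3% after thinning. With a minimum of 20 summed UMIs, 6.98% of genes were higher by 1.5-fold and 4.71% lower, and with 500, 1.91% and 0.599%. Except where a set of cells was removed, the cause was not tested. No paired analysis was possible because there is 1 library per genotype, and for the same reason no library could be left out. At a median of 2571 and 2884 UMIs per precursor, genes such as Bmp4 are seen as 0 or 1 UMI in most cells, so levels of single cells below that were not detectable.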

Other observations

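Pericytes, the contractile cells of capillaries, held Bmp4 too. There were 9 UMIs in 33 wt pericytes and 5 in 13 GlaKO pericytes, or 90.7 CPM (41.5 to 172) and 113 CPM (36.6 to 263). Of all classes with any Bmp4 these small groups had the highest level in both libraries. Tcf7l2 had log2 ratios of 0.31 (0.08 to 0.53) in astrocytes and 0.43 (0.10 to 0.75) in choroid plexus epithelium, against 0.06 in precursors. In oligodendrocytes 3 of the 11 measured precursor genes were higher by 1.5-fold and none lower. Over 8884 genes there, 2.66% were higher and 0.946% lower. Ntm, at 28 and 169 UMIs, had a log2 ratio of 1.69 (1.11 to 2.32) in oligodendrocytes. The summed precursor gate markers were at 24.7 and 37.7 CPM in oligodendrocytes. They were at 29.5 and 36.9 CPM in microglia and at 150 and 147 CPM in neurons.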
